A study of Mus musculus with 2 samples.

Results

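The insulin-like growth factor (IGF) axis was followed here as 8 genes, the ligands Igf1 and Igf2 and the binding proteins Igfbp2 to Igfbp7, taken by symbol from the 31053 genes of the deposited count tables. All 8 were listed once in both tables. The tables hold dermal cells of 8-week-old C57BL/6 mice that carried PdgfraDreER-tdTomato, in which tamoxifen switches on the red fluorescent protein tdTomato in cells of the Pdgfra lineage, the fibroblast lineage of skin. Live CD45- tdTomato+ cells were sorted from untreated (UT) skin or from skin given imiquimod (IMQ) for 7 days. IMQ is a Toll-like receptor 7/8 agonist that gives psoriasis-like inflammation. Both groups carried the reporter, and the reporter marks lineage, so a sorted cell need not still express Pdgfra. There was 1 library per group and the number of mice behind each library was not stated. No difference below therefore has a replicate check, no test was possible, and each interval is an exact 95% interval that covers counting error only. Where a count was 0, the limit given is 3 counts of the total, and it bounds the barcodes with a UMI, not the cells that express the gene.

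IGF1 and IGF2 are secreted growth factors that act mainly through the receptor IGF1R. In skin, dermal cells are a source of IGF1 for the overlying keratinocytes and for the hair follicle. The IGF binding proteins hold the ligands outside the cell and either shield them or release them near the receptor, and several also act without a ligand. IGFBP7 binds IGF weakly and is often set apart from the other family members. Secreted proteases such as pappalysins and HTRA proteins cut the binding proteins and so free the ligands.

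Barcodes with 200 to 5000 detected genes and at most 5% mitochondrial unique molecular identifiers (UMIs) were kept, which left 1045 UT barcodes with 1104798 UMIs (median 741) and 571 IMQ barcodes with 460947 UMIs (median 659). A mitochondrial maximum of 10% left 1301 UT and 1043 IMQ barcodes. No barcode was shared between the kept sets of the 2 libraries. The IMQ table holds fewer barcodes than the number of filtered IMQ cells given in the study's methods, so it is not known whether the same cells were analysed there. Levels are given as UMIs per 1000000 UMIs (CPM). The ribosomal RNA-like transcript Gm42418 took 14.6% of the kept IMQ UMIs and 1.38% of the UT UMIs, and the median gene stood at a log2 ratio of -0.61 (IMQ over UT, with 1 CPM added), so ratios are also given relative to that median. All 7 fibroblast markers, among them Col1a1 and Pdgfra, were present in both libraries and summed to 100312 CPM in UT and 163887 CPM in IMQ. Clustering without the IGF axis genes gave 3 fibroblast-like clusters (986 UT and 552 IMQ barcodes), a small cluster led by Malat1 (34 and 8) and a small cluster led by the class II genes Cd74 and H2-Ab1 (25 and 11).

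Igf1, the main ligand, was lower in IMQ over all kept barcodes, but not detectably so in the deepest ones. UT skin gave 353 Igf1 UMIs in 214 of 1045 barcodes, or 319.5 CPM (287 to 355). IMQ skin gave 48 UMIs in 38 of 571 barcodes, or 104 CPM (76.8 to 138). The log2 ratio was -1.62 (-2.08 to -1.18), a level 3.07-fold lower, and -1.01 relative to the median gene. The UMIs were spread thinly, since no barcode held more than 9 in UT or 5 in IMQ, and the ratio without the top barcode of each library was -1.72. At a 10% mitochondrial maximum the ratio was -1.86 (-2.25 to -1.49). In the barcodes with 500 or more genes, 303 in UT and 37 in IMQ, it was -0.47 (-1.26 to 0.23), an interval that includes no difference, and the share of carriers thinned to 400 UMIs was 11.2% in UT and 10.8% (3.03 to 25.4) in IMQ. That deep set was not split by cluster, and the Malat1-led cluster was deep, with a median of 3690.5 UMIs (both libraries together). The part of cell make-up in the ratio of the deep set was not tested. In the fibroblast-like clusters the Igf1 ratio was -2.13 (-2.69 to -1.61). Igf1 was lower in IMQ in each fibroblast-like cluster, with 325 against 35.7 CPM in cluster 1 (led by Coch and Fmod), 330.5 against 73.6 CPM in cluster 2 (led by Gm4841 and Sulf2) and 407 against 138 CPM in cluster 3 (led by Lbp and Pi16). The Malat1-led cluster held 36 Igf1 UMIs in UT and 11 in IMQ, and the interval of its ratio, 0.48 (-0.65 to 1.48), included no difference. With every barcode thinned to 400 UMIs, 11.2% (9.30 to 13.4) of UT and 4.09% (2.58 to 6.13) of IMQ barcodes carried an Igf1 UMI.

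Igf2, the second ligand and a growth factor of the embryo, was close to absent. It gave 3 UMIs in 3 UT barcodes, all in the Malat1-led cluster, and 0 UMIs in 571 IMQ barcodes, which allows a share of barcodes with a UMI of up to 0.525% at a median depth of 659 UMIs. No ratio was computed for it. The antisense genes Igf1os and Igf2os, which overlap the ligand genes on the other strand, summed to 0 UMIs in UT, and to 1 and 0 UMIs in IMQ, over the kept barcodes.

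**Figure D1:**
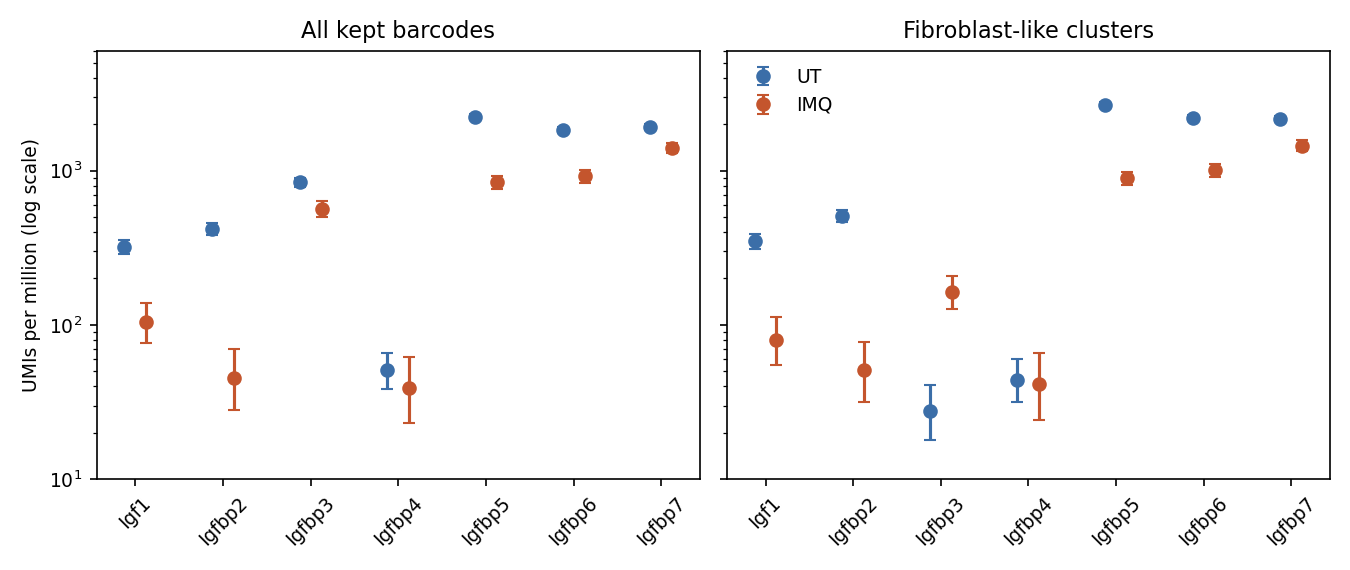
Level of Igf1 and 6 binding proteins in CPM (log axis) in the UT and IMQ libraries, over all kept barcodes (left) and over the fibroblast-like clusters (right). Points are library sums and bars are exact 95% Poisson intervals. Igfbp3 was 840.0 in UT and 566 in IMQ over all kept barcodes but 27.6 and 162 in the fibroblast-like clusters. Igf1, Igfbp2, Igfbp5, Igfbp6 and Igfbp7 lay lower in IMQ in both panels, as did Igfbp4 with overlapping intervals.

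Igfbp2 and Igfbp5 are neighbours on chromosome 1, transcribed toward each other with 5457 bases between their ends. Igfbp2 lies at chr1:72824503-72852474 on the plus strand and Igfbp5 at chr1:72857932-72874884 on the minus strand (mm10, GENCODE M21). Both were lower in IMQ, so the 250 bases before their RefSeq starts (GRCm38.p6) are shown with those of Igfbp3, which went the other way within the fibroblast-like clusters. Capitals mark GGGCGG on either strand, the core of a GC box. The TATA box (TATAAA), the CCAAT box (its 5 letters) and the AP-1 motif (TGANTCA) were also searched on both strands, and no exact match lay in these 3 windows. Near matches, such as tatata in the Igfbp3 window and tatttaaa in the Igfbp5 window, were not counted.

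Igfbp2, chr1:72824230-72824479, plus strand: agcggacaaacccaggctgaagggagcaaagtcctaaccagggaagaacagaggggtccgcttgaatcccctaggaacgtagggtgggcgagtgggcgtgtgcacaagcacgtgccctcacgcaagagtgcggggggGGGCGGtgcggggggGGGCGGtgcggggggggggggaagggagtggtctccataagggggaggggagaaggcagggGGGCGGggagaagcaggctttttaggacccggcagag

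Igfbp5, chr1:72874866-72875115, minus strand: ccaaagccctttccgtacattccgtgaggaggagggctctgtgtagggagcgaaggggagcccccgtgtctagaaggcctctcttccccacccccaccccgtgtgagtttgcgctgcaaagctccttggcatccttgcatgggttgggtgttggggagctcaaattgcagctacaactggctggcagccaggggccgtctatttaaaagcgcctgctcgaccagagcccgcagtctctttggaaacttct

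Igfbp3, chr11:7213924-7214173, minus strand: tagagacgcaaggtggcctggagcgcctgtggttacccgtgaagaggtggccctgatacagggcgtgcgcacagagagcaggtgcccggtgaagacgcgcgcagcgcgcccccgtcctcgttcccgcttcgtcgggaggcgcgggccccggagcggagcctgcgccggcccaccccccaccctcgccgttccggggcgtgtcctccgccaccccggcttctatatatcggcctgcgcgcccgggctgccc

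The Igfbp2 window held 3 copies of GGGCGG, and the Igfbp5 and Igfbp3 windows held none. Of 32851 mouse promoters in the same table, 32.7% held the GC box core, 33.8% the CCAAT box, 12.4% the TATA box and 6.75% the AP-1 motif in the same 250 bases. The Igfbp3 window had a GC content of 73.2%, the Igfbp2 window 67.2% and the Igfbp5 window 58.8%, beside a median of 52.4% over all promoters. A match to these letters is a description of the sequence and not a site of binding.

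Igfbp2 had the lowest ratio of the binding proteins. UT skin gave 465 UMIs in 100 barcodes, or 421 CPM (384 to 461). IMQ skin gave 21 UMIs in 11 barcodes, or 45.6 CPM (28.2 to 69.6). The log2 ratio was -3.21 (-3.91 to -2.58), a level 9.24-fold lower, and -2.60 relative to the median gene. Without the top barcode of each library, which held 25 UMIs in UT and 5 in IMQ, it was -3.52. It was -2.55 (-2.89 to -2.22) at a 10% mitochondrial maximum, where UT held 781 and IMQ 86 UMIs. The top IMQ barcode then held 26 of those 86, and without the top barcode of each library the ratio was -3.02.

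Igfbp2 was the most clumped member within the fibroblast-like clusters. Over all kept barcodes UT carriers held 4.65 Igfbp2 UMIs each and the 10 highest UT barcodes held 36.6% of the UMIs. After thinning of the fibroblast-like barcodes to 400 UMIs the variance over the mean was 4.86 in UT and 3.21 in IMQ, where independent counts at 1 level would give about 1, and no other member exceeded 2.25. The carriers lay in clusters 1 and 2, with 679 and 671 CPM in UT. Cluster 3 held 65.7 CPM in UT, from 3 of 177 barcodes. IMQ values were 128 CPM in cluster 1 and 13.4 CPM in cluster 2, the latter from 2 UMIs in 1 barcode, against 262 UMIs in 45 UT barcodes. The log2 ratio in cluster 2 was -5.65 with a counting interval of -8.70 to -3.78.

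Igfbp5 was found in most UT barcodes. UT skin gave 2467 UMIs in 689 barcodes, or 2233 CPM (2146 to 2323). IMQ skin gave 388 UMIs in 211 barcodes, or 842 CPM (760.1 to 930). The log2 ratio was -1.41 (-1.57 to -1.25), a level 2.65-fold lower, -0.80 relative to the median gene, and -1.43 without the top barcode of each library. At a 10% mitochondrial maximum it was -1.42. UT levels were 2730 CPM in cluster 1, 3148 in cluster 2 and 1837 in cluster 3, and IMQ levels were 978, 816 and 887 CPM. Cluster 2, the highest in UT, thus had the lowest ratio of the 3 clusters at -1.95 (-2.23 to -1.68), below -1.05 (-1.37 to -0.74) in cluster 3.

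Igfbp6, which binds IGF2 in preference to IGF1, showed a smaller difference. UT skin gave 2041 UMIs in 679 barcodes, or 1847 CPM (1768 to 1929), and IMQ skin 426 UMIs in 252 barcodes, or 924 CPM (838 to 1016). The log2 ratio was -0.999 (-1.15 to -0.85), just short of 2-fold lower, -1.02 without the top barcode of each library, and -0.39 relative to the median gene. It was -1.13 (-1.25 to -1.01) at a 10% mitochondrial maximum and -1.12 (-1.28 to -0.97) in the fibroblast-like clusters. The order over the fibroblast-like clusters was the same in both libraries, with the lowest level in cluster 1 (1815 CPM in UT, 735 in IMQ) and the highest in cluster 3 (2732 in UT, 1465 in IMQ). In cluster 3 of UT skin 146 of 177 barcodes carried it.

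Igfbp7 differed least among the 3 widely carried binding proteins. UT skin gave 2116 UMIs in 696 barcodes, or 1915 CPM (1835 to 1999). IMQ skin gave 650 UMIs in 324 barcodes, or 1410 CPM (1304 to 1523). The log2 ratio was -0.44 (-0.57 to -0.31), and relative to the median gene it was 0.16. It was -0.42 without the top barcode of each library and -0.31 (-0.41 to -0.22) at a 10% mitochondrial maximum. With trimmed mean of M values (TMM) scaling of the library sums the ratio was 0.04 (-0.09 to 0.17), and with median-of-ratios scaling 0.15, so its direction depended on the scaling. The gene overlaps Polr2b and Gm34648 on the other strand.

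Igfbp4 was rare. UT skin gave 56 UMIs in 28 barcodes, or 50.7 CPM (38.3 to 65.8), and IMQ skin 18 UMIs in 9 barcodes, or 39.1 CPM (23.1 to 61.7). The log2 ratio of -0.38 (-1.23 to 0.41) did not separate the libraries at this depth, and it was 0.11 with TMM and 0.22 with median-of-ratios scaling. One IMQ barcode held 10 of the 18 UMIs, and without the top barcode of each library the ratio was -1.36 (-2.65 to -0.27). At a 10% mitochondrial maximum it was -0.72 (-1.45 to -0.03), and -1.29 without the top barcodes. Of the 40 UT UMIs in fibroblast-like barcodes, 33 lay in cluster 1, led by Coch and Fmod, where the level was 122 CPM, against 10.2 and 12.3 CPM in clusters 2 and 3.

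**Figure D2:**
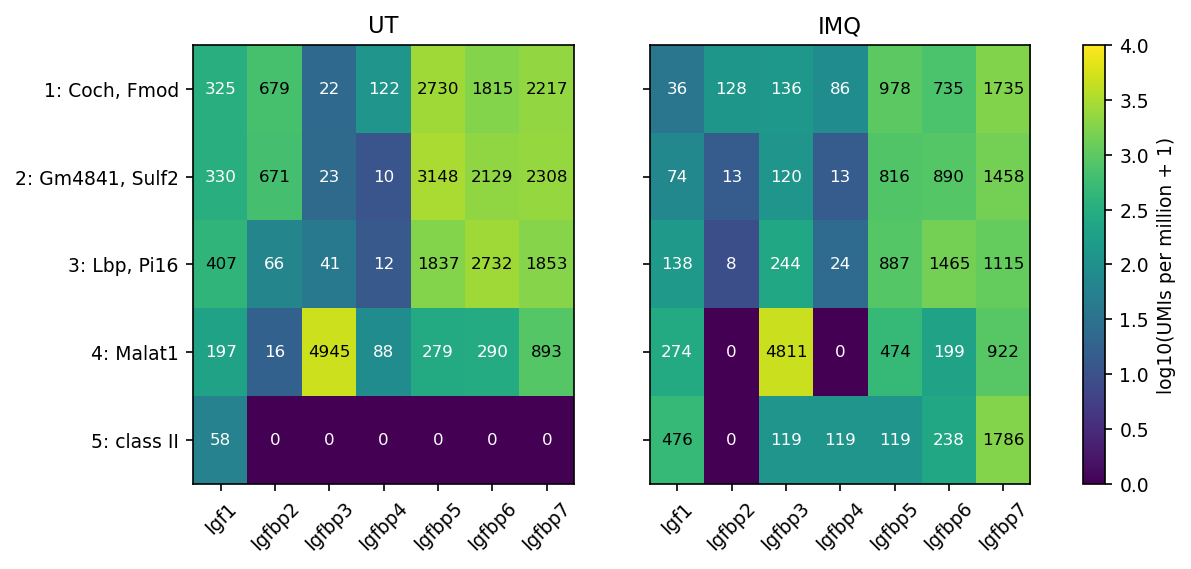
Level of each gene (columns) in each cluster (rows, with leading genes) in the UT (left) and IMQ (right) libraries. Numbers are CPM and colour is log10 of CPM plus 1. Igfbp3 stood at 4945 in UT and 4811 in IMQ in the Malat1-led cluster, Igfbp2 lay mainly in clusters 1 and 2, and Igfbp6 was highest in cluster 3 in both libraries.

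Igfbp3, the main IGF carrier of the circulation, differed from the other members in that most of its UMIs came from few barcodes. UT skin gave 928 UMIs in 47 barcodes, or 840.0 CPM (787 to 896), and IMQ skin 261 UMIs in 59 barcodes, or 566 CPM (499.6 to 639). The log2 ratio over all kept barcodes was -0.57 (-0.77 to -0.37), which is 0.04 relative to the median gene. It was -0.09 (-0.29 to 0.11) with TMM and 0.03 (-0.18 to 0.23) with median-of-ratios scaling, so the direction over all kept barcodes depended on the scaling. In CPM at a 10% mitochondrial maximum the ratio was -0.91 (-1.10 to -0.73), and without the top barcode of each library it was -0.90 at 5% and -1.14 at 10%. The Malat1-led cluster held 903 of the 928 UT UMIs in 27 barcodes and 193 of the 261 IMQ UMIs in 5 barcodes, which is 97.3% (96.0 to 98.2) and 73.9% (68.2 to 79.2) of them. Within that cluster the levels were 4945 and 4811 CPM, with a ratio of -0.04 (-0.27 to 0.19), and -0.44 (-0.73 to -0.15) without the top barcode of each library, which held 109 UMIs in UT and 80 in IMQ. The Malat1-led cluster was 34 of 1045 kept barcodes in UT and 8 of 571 in IMQ.

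In the fibroblast-like clusters Igfbp3 was higher in IMQ. There UT skin gave 25 Igfbp3 UMIs in 20 of 986 barcodes, or 27.6 CPM (17.9 to 40.8), and IMQ skin gave 67 UMIs in 53 of 552 barcodes, or 162 CPM (126 to 206). The log2 ratio was 2.56 (1.87 to 3.28), a level 5.88-fold higher in IMQ. No barcode held more than 3, and without the top barcode of each library the ratio was 2.68. It was 2.64 (2.04 to 3.29) in the fibroblast-like clusters at a 10% mitochondrial maximum, from 28 UT and 125 IMQ UMIs. It was 2.62, 2.38 and 2.57 in clusters 1, 2 and 3, with the highest IMQ level in cluster 3, at 244 CPM in 23 of 143 barcodes. These clusters rest on integration of the libraries. Without it the fibroblast-like barcodes separated largely by library (571 UT and 33 IMQ, 334 and 41, 24 and 264, 44 and 215 in 4 clusters), and Igfbp3 was higher in IMQ in 3 of the 4 but stood at 347 CPM in UT, from 4 UMIs, and 213 CPM in IMQ in the other. The low-content barcodes of the IMQ library, those under 200 genes, also carried it, at 112 CPM (93.2 to 133) in 3621 barcodes. The 64 such UT barcodes held 1 Igfbp3 UMI among a total of 27157 UMIs, too few to compare the libraries there. In the class II-led cluster, which has its own leading genes, 0 of 25 UT and 1 of 11 IMQ barcodes held an Igfbp3 UMI, the latter 9.09% (0.23 to 41.3) beside 9.60% in the fibroblast-like barcodes, at a median of 447 UMIs for both libraries of that cluster together and 658.5 for the IMQ fibroblast-like barcodes. With 11 barcodes the IMQ fibroblast-like share could not be told apart from that background, and the part of free RNA in the difference was not tested.

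**Figure D3:**
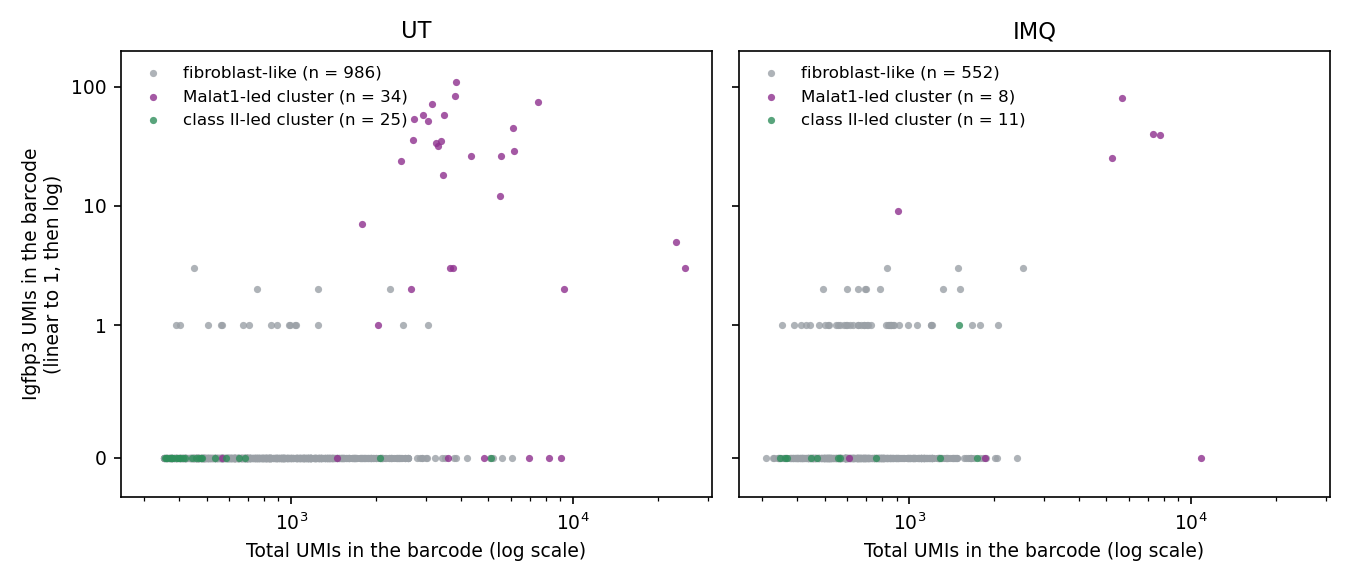
Igfbp3 UMIs (vertical axis, linear to 1 and then logarithmic) against total UMIs (log axis) in each kept barcode of the UT (left) and IMQ (right) libraries, coloured by cluster class. The 19 UT and 4 IMQ barcodes with 10 or more Igfbp3 UMIs all belong to the Malat1-led cluster, and no fibroblast-like barcode exceeds 3.

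The Igfbp3-rich barcodes were deep. Those with 10 or more Igfbp3 UMIs (a limit set after the values were seen), 19 in UT (lowest 12, median 36, highest 109) and 4 in IMQ (lowest 25, median 39.5, highest 80), had a median of 3443 and 6499.5 total UMIs. Malat1, a long noncoding RNA kept in the nucleus, took a median of 11.2% of their UMIs in UT and 7.38% in IMQ. In the fibroblast-like barcodes Malat1 gave 48 UMIs in 46 of 986 UT barcodes and 10 UMIs in 9 of 552 IMQ barcodes. Whether the fibroblast-like barcodes hold whole cells was not tested. The 7 fibroblast markers summed to a median of 6 UMIs in the 19 UT barcodes (lowest 1, highest 84) and 7.5 in the 4 IMQ barcodes. Pdgfra, the gene behind the sort, was found in 17 barcodes of the cluster (40.5%, both libraries together, at a median of 3690.5 UMIs) against 6, 21 and 11 barcodes (0.97%, 3.51% and 3.44%) of clusters 1 to 3. All 7 fibroblast markers were found in at least 20% of the cluster, and it stayed unnamed because of its keratinocyte markers, which lay mainly in 2 barcodes. The 7 keratinocyte markers summed to at most 1 UMI in any of the 19 UT barcodes and to 0 in the 4 IMQ barcodes, and 2 other UT barcodes of the cluster held 1866 of its 1876 keratinocyte UMIs with 8 Igfbp3 UMIs between them. This holds for kept barcodes only. Over all deposited barcodes, 20 in UT held 10 or more Igfbp3 UMIs, with 1004 of 1066 UMIs and a highest of 127. The highest keratinocyte marker sum among these 20 was 2390. In IMQ 6 deposited barcodes did so, with 554 of 848 UMIs, a highest of 320 and a highest keratinocyte marker sum of 2. Of 8 endothelial markers, 7 were found in the UT cluster with 58 UMIs and Lyve1 at 0, and 3 in the IMQ cluster with 5 UMIs. They lay in few barcodes. Over both libraries together no endothelial marker was found in more than 3 barcodes of the cluster (7.14%), and the 17 Cldn5 UMIs lay in 1. The part of other cell types in the Igfbp3 level was not tested.

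The same barcodes differed from the fibroblast-like barcodes in the rest of the axis. Igfbp5 stood at 65.2 CPM (21.2 to 152) in the 19 UT barcodes against 2670 CPM (2565 to 2779) in the UT fibroblast-like barcodes, and at 0 UMIs in the 4 IMQ barcodes. Igfbp6 stood at 117 CPM (53.7 to 223) against 2197 CPM (2102 to 2296) in UT, also with 0 UMIs in the 4 IMQ barcodes. Igfbp7 was at 887 CPM (689 to 1124) against 2158 CPM (2064 to 2256) in UT. Igf1 stood at 352 CPM (232 to 512) against 349 CPM (312 to 390.0) in UT, and at 347 CPM (159 to 658) against 80.0 CPM (55.1 to 112) in IMQ, the former from 9 UMIs. Pappa2, a pappalysin that cuts IGFBP3 and IGFBP5, was at 587 CPM (428 to 785) in 16 of the 19 UT barcodes and at 501 CPM (267 to 856) in all 4 IMQ barcodes, against 2.21 and 7.27 CPM in the fibroblast-like barcodes, which held 2 and 3 UMIs. Igf1r was at 209 CPM (119 to 339) in UT and 308 CPM (133 to 607) in IMQ, against 32.1 (21.5 to 46.0) and 24.2 (11.6 to 44.6) CPM. Htra1 went the other way, at 248 CPM (149 to 387) against 1598 CPM (1517 to 1683) in UT, and at 1 UMI against 999 CPM in IMQ. Htra3 was at 183 CPM (99.8 to 306) against 287 CPM (253 to 324) in UT, where the intervals overlapped, and at 2 UMIs against 233 CPM in IMQ. These barcodes thus held Pappa2 and Igf1r beside Igfbp3 in both libraries. They held little Igfbp5 or Igfbp6, and less Htra1 than the fibroblast-like barcodes.

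Of the 7 members with 10 or more UMIs over both libraries, 3 (Igf1, Igfbp2 and Igfbp5) were at least 2-fold lower in IMQ and 0 were at least 2-fold higher, with a median log2 ratio of -0.999 beside -0.61 over all genes tested. Of all 8129 genes with 10 or more UMIs, 34.2% were at least 2-fold lower and 4.03% at least 2-fold higher, and the members' 3 of 7 is read against that share. Without the top IMQ barcode of each gene the count was 6 of 7, with Igfbp3, Igfbp4 and Igfbp6 added, against 48.2% of all genes, and 0 were at least 2-fold higher, against 2.41%. Without the top barcode in both libraries 5 of 7 were lower, against 43.4%, and 0 higher, against 3.7%. Over all deposited barcodes, where the median gene was at -0.96, 5 of 7 were lower, against 52.3%, and 0 higher, against 2.36%. At a 10% mitochondrial maximum 4 of 7 were at least 2-fold lower, Igfbp6 being added, against 34.7% of all genes, and 0 were higher, against 3.78%. Without the top barcodes at 10%, 6 of 7 were lower, against 40.7%, and 0 higher, against 3.85%. In the fibroblast-like clusters 4 of 7 were lower, against 34.6%, and Igfbp3 alone was higher, against 4.7%. Without the top barcodes there, 5 of 7 were lower, against 42.7%, and Igfbp3 was higher, against 4.53%. With TMM scaling, 2 of 7 (Igf1 and Igfbp2) were at least 2-fold lower over all kept barcodes, against 20% of all genes, and 0 were higher, against 10.1%. With TMM in the fibroblast-like clusters 3 of 7 were lower, against 19%, and 1 was higher, against 11.0%.

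**Figure D4:**
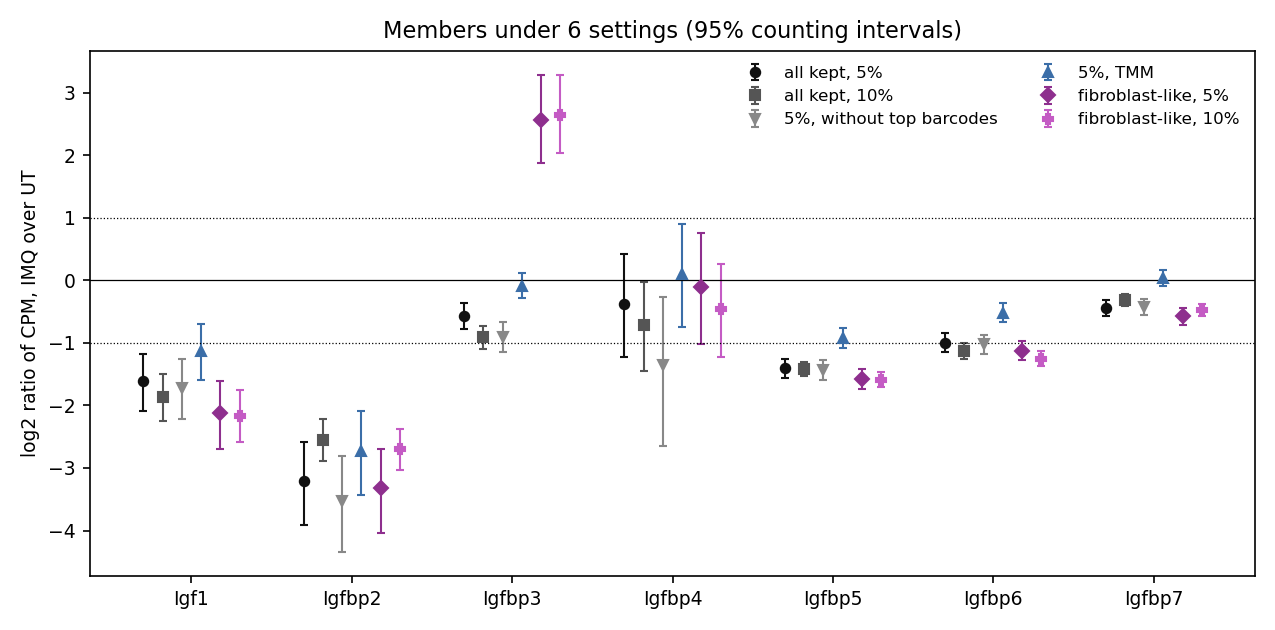
Log2 ratio of CPM, IMQ over UT, for each gene under 6 settings, with exact 95% counting intervals. Dotted lines mark 2-fold. Igfbp2 lies below 2-fold lower under all 6, and Igfbp3 lies below 0 in the 4 settings over all kept barcodes and above 2-fold higher in the 2 settings of the fibroblast-like clusters. The TMM interval of Igfbp3 includes 0.

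Shares of carriers were compared at equal depth. Every kept barcode was thinned to 400 UMIs, which left out 73 UT and 33 IMQ barcodes below that depth. Igfbp5 was then carried by 50.5% (47.3 to 53.7) of UT and 26.2% (22.5 to 30.1) of IMQ barcodes, beside 65.9% and 37.0% unthinned. Igfbp6 was carried by 48.3% (45.1 to 51.4) and 28.1% (24.3 to 32.1), beside 65.0% and 44.1% unthinned. Igfbp7 was carried by 49.5% (46.3 to 52.7) and 40.9% (36.7 to 45.2), Igfbp2 by 7.30% (5.75 to 9.12) and 1.30% (0.52 to 2.66), and Igfbp4 by 1.23% and 1.12%. Igfbp3 was the member carried by more barcodes in IMQ, 7.62% (5.52 to 10.2) against 3.09% (2.09 to 4.38). Its level in CPM over all kept barcodes was lower there, a direction that depended on the scaling. Thinned to 200 UMIs, the shares were 3.15% (1.88 to 4.94) in IMQ and 2.30% (1.48 to 3.40) in UT, with overlapping intervals. In the fibroblast-like clusters at 200 UMIs they were 4.17% (2.66 to 6.19) and 0.61% (0.22 to 1.32). In the 25 UT barcodes of the class II-led cluster the binding proteins gave 0 UMIs, which allows a share of barcodes with a UMI of up to 12%, and Igf1 gave 1 UMI. In the 11 IMQ barcodes of that cluster Igfbp7 was found in 5, Igf1 in 3 and Igfbp5 in 1, which is 45.5%, 27.3% and 9.09%, beside 56.7%, 6.65% and 37.0% of all kept IMQ barcodes, unthinned. Cells with class II genes can express Igf1 themselves, so that cluster gives no background level for it, and the part of free RNA was not tested.

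**Figure D5:**
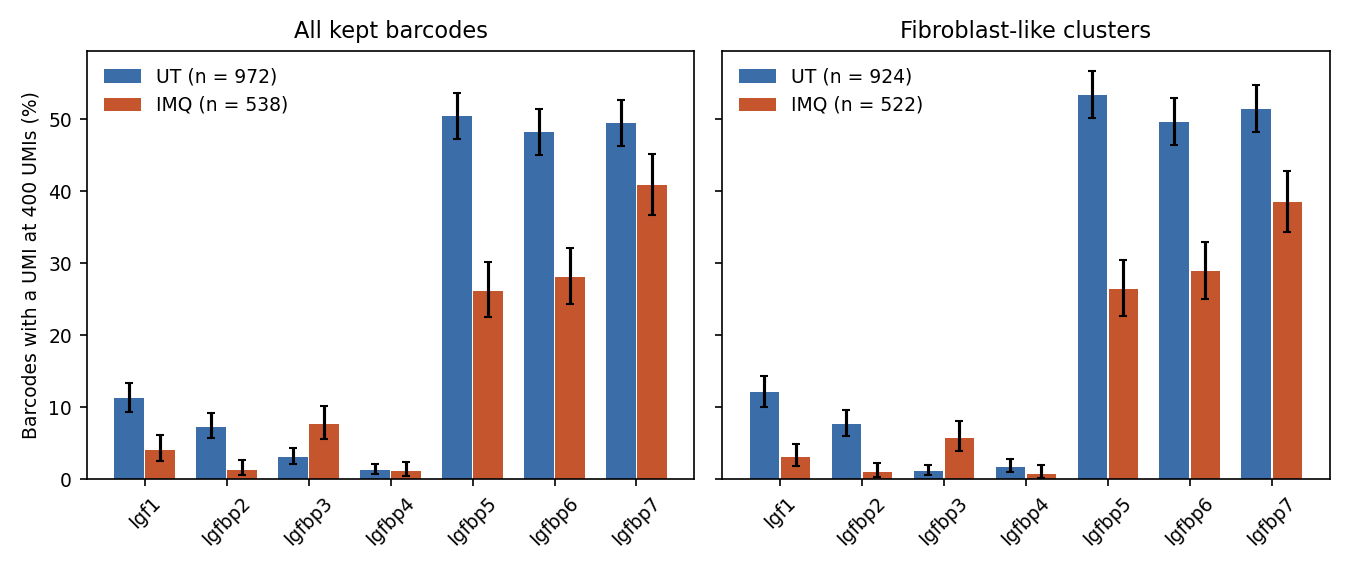
Percent of barcodes with at least 1 UMI of each gene after thinning to 400 UMIs, in UT and IMQ, over all kept barcodes (left) and the fibroblast-like clusters (right). Bars start at 0 and error bars are exact 95% binomial intervals. Igfbp3 is the gene with the higher share in IMQ in both panels, 7.62% against 3.09% and 5.75% against 1.08%.

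Most UT barcodes held more than 1 kind of binding protein. At 400 UMIs, 359 of 972 UT barcodes carried 2 of the 6 binding proteins, 155 carried 3 and 12 carried 4, and 123 carried none. In IMQ, 118 of 538 carried 2, 21 carried 3, 3 carried 4 and 141 carried none. In UT the 3 common ones were carried together at shares near those of non-carriers. Of UT Igfbp5 carriers 50.1% also carried Igfbp6, beside 46.4% of non-carriers, and 52.1% carried Igfbp7, beside 46.8%. In IMQ, 27 of 141 Igfbp5 carriers (19.1%) also held Igfbp6, beside 31.2% of non-carriers. Igfbp3 carriers in UT, most of them in the Malat1-led cluster, had lower shares of the 3 common ones, with Igfbp5 in 4 of 30 (13.3%), Igfbp6 in 6 of 30 and Igfbp7 in 7 of 30, beside 51.7%, 49.2% and 50.3% of non-carriers. In IMQ, where most Igfbp3 carriers were fibroblast-like, Igfbp5 was in 24.4% of 41 carriers beside 26.4% of non-carriers. These shares are descriptions over cells of 1 library each.

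Lists of fibroblast position markers were read in the same thinned barcodes. A UMI of the fascial list (Pi16, Dpp4 and 5 others) was found in 83.5% of UT Igf1 carriers beside 70.0% of non-carriers, and in 77.3% beside 64.5% in IMQ. It was found in 77.6% of UT Igfbp6 carriers beside 65.8% of non-carriers, and in 72.2% beside 62.3% in IMQ. Igfbp7 carriers had 74.6% beside 68.4% in UT and 69.5% beside 61.9% in IMQ. Igfbp5 carriers had 74.3% beside 68.6% in UT but 63.8% beside 65.5% in IMQ. The share was lower in Igfbp2 carriers, 63.4% beside 72.1% in UT and 28.6% of 7 beside 65.5% in IMQ. Igfbp4, with 12 and 6 carriers, had 33.3% beside 72.0% and 83.3% beside 64.8%. Igfbp3 carriers in IMQ also had a lower share, 53.7% beside 66.0%. In UT, Igfbp3 carriers had 36.7% beside 72.6%. The papillary list (Lef1, Wif1, Axin2 and 6 others) was found in 40.0% of them beside 7.64% of non-carriers. The dermal sheath list (5 genes, among them Acta2 and Tagln) was also found in more of them, 10.0% beside 1.49% of non-carriers. Unthinned, in the Malat1-led cluster of UT skin Lef1, a WNT effector, was in 14 of 34 barcodes and Wif1, a secreted WNT inhibitor, in 10. They were in 0 and 6 of 986 UT fibroblast-like barcodes. Depth differed, with a median of 3690.5 UMIs in the cluster (both libraries together) and 733.5 in those barcodes. IMQ Igfbp3 carriers held the dermal sheath list in 0% beside 1.21%. IMQ Igfbp3 carriers held the papillary list in 4.88% beside 3.62%. Igfbp2 carriers in UT held the papillary list in 16.9% beside 7.99%, and in IMQ 0 of 7 carriers held it beside 3.77%. The reticular list (Mgp, Gpx3 and 5 others) was found in 43.3% of UT Igfbp6 carriers beside 35.2% of non-carriers, and in 58.9% beside 44.7% in IMQ.

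The genes most like each member were ranked by the smaller of the 2 libraries' log2 ratios of mean thinned UMIs in carriers over non-carriers, with 0.5 UMI added to each sum, among 912 genes with 20 or more thinned UMIs in each library. For Igfbp3 they were Malat1 (5.94 in UT, 5.73 in IMQ) and the immediate early genes Junb (4.97 and 3.60) and Dusp1 (3.39 and 2.78). In IMQ these 3 gave 1994, 244 and 92 unthinned UMIs in the 8 barcodes of the Malat1-led cluster. The 552 IMQ fibroblast-like barcodes, which held most Igfbp3 carriers, gave 10, 30 and 44. The ranking was not computed for fibroblast-like carriers alone, so it need not describe them. For Igfbp6 they were the interferon-inducible Ifi205 (1.32 and 1.36), Pi16 (1.16 and 1.12) and Lix1l (0.77 and 0.85). For Igfbp5 they were Grem1, a BMP antagonist (0.90 and 0.99), Col6a1 (0.76 and 0.88) and Por (0.74 and 0.93), and for Igfbp7 Edf1 (0.93 and 0.71), Aldh3a1 (0.68 and 1.13) and Smpdl3a (0.64 and 1.09). For Igf1 the first 3 (Marc2, Cct4 and Sirt2) rested on 2 thinned UMIs each in the IMQ carriers. Several of the other genes also rested on few thinned UMIs in carriers. Dusp1 had 6 in UT and 10 in IMQ. In IMQ, Grem1 and Lix1l had 9 each, Por 10 and Smpdl3a 12. Igfbp2 and Igfbp4 had under 10 IMQ carriers and were not ranked.

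The rest of the axis was read from a list of 35 genes, of which 22 had 10 or more UMIs over both libraries. Of these, 3 (Grb10, Pik3r1 and Jak2) were at least 2-fold lower in IMQ and 3 (Stc2, Socs2 and Socs3) at least 2-fold higher, with a median log2 ratio of -0.31, beside the 34.2% and 4.03% of all genes. The genes past 2-fold depended on the setting. With TMM scaling 0 of 22 were lower, against 20%, and 6 (Stc2, Irs1, Irs2, Stat5a, Socs2 and Socs3) higher, against 10.1%. In the fibroblast-like clusters 4 of 19 (Irs2, Grb10, Foxo3 and Stat5b) were lower, against 34.6%. There 3 (Stc2, Irs1 and Socs2) were higher, against 4.7%. The receptors were low, with Igf1r at 51.6 CPM in UT and 41.2 in IMQ and a ratio of -0.32 (-1.16 to 0.45), and Igf2r, which clears IGF2, at 26.2 and 19.5 CPM and -0.43 (-1.69 to 0.69). Insr gave 6 and 0 UMIs. Among the proteases, Htra1 was at 1359 and 918 CPM with a ratio of -0.57 (-0.73 to -0.41), which is 0.04 relative to the median gene. Htra3 was at 259.8 and 215 CPM, with -0.27 (-0.62 to 0.06). Pappa2 was at 42.5 and 34.7 CPM, with 45 of 47 and 13 of 16 UMIs in the Igfbp3-rich barcodes, and Pappa at 11.8 and 8.68 CPM. Stc2, which encodes a stanniocalcin that inhibits the pappalysins, gave 7 and 8 UMIs, with a ratio of 1.45 (-0.20 to 3.15).

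Downstream of the receptors, Pik3r1, the regulatory subunit of PI3-kinase, was at 173 CPM in UT and 78.1 in IMQ, with a ratio of -1.15 (-1.70 to -0.63), but -0.68 (-1.31 to -0.09) in the fibroblast-like clusters. Grb10, an adaptor that restrains IGF1R, gave 37 and 6 UMIs and a ratio of -1.36 (-2.90 to -0.11). The intervals of Irs1, Irs2, Grb14, Shc1, Akt1, Foxo1 and Foxo3 included 0, with ratios from -0.93 for Foxo1 to 0.97 for Irs1. In the growth hormone arm, Ghr, the growth hormone receptor that drives Igf1, was at 143 and 121 CPM with -0.24 (-0.70 to 0.21). Socs2, a feedback inhibitor of that receptor, was at 8.15 CPM in UT and 54.2 in IMQ, with a ratio of 2.74 (1.59 to 4.02) from 9 and 25 UMIs, and 2.22 (0.93 to 3.64) in the fibroblast-like clusters from 8 and 17 UMIs. Socs3, a feedback inhibitor of cytokine receptors, was at 50.7 and 195 CPM with 1.95 (1.45 to 2.45). Its 90 IMQ UMIs lay in 13 barcodes, 1 of which held 23, and in the fibroblast-like clusters the ratio was 0.26 (-1.46 to 1.82) from 11 and 6 UMIs. Jak2, the kinase bound to Ghr, had 5 UMIs in IMQ and 24 in UT, Stat5a 0.88 (-0.47 to 2.19) and Stat5b -0.83 (-2.86 to 0.79). The other 13 genes of the list, among them Igfbp1, Igfals and H19, had under 10 UMIs.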

How the data were processed

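Dermal CD45- tdTomato+ cells were profiled with the Chromium Single Cell 3′ v3 kit, 1 library each for UT and IMQ. The authors deposited raw UMI counts per gene and barcode, made with Cell Ranger (3.0.0 for UT and 3.1.0 for IMQ, per the file headers) on mm10 (per the labels). Members and lists were chosen with earlier results of these data known. Barcodes with 200 to 5000 genes and at most 5% (alternatively 10%) mitochondrial UMIs were kept, and no doublet step was used in the main values. The study reports a doublet step, so Scrublet was an alternative, with the highest scores removed at 0.8% per 1000 barcodes and ties broken by depth. Counts were summed per library and scaled to CPM. Ratios carry exact conditional binomial intervals, levels exact Poisson intervals and shares Clopper-Pearson intervals, at 95%. PCR copies were collapsed by UMI, and intervals cover counting error only. The median gene was taken over genes with 10 or more UMIs, with 1 CPM added. No ratio was given where both libraries held at most 3 UMIs.

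Clusters were made with Seurat 5.3.0 (2000 variable genes without the IGF axis, 30 integration dimensions, 20 components, resolution 0.5). A cluster was called fibroblast-like when 3 or more of 7 fibroblast markers were found in at least 20% of its cells and no other type had 3 markers enriched by a log2 of 2 (20 CPM added, 10 UMIs or more). These limits, the minimum of 10 Igfbp3 UMIs for a rich barcode and the 100 for keratinocyte barcodes were set after the clusters were seen. For shares at equal depth each barcode was thinned to 400 UMIs, the 10th percentile of the shallower library rounded down. TMM factors came from edgeR 4.0.16. Scripts were tested on simulated counts with known folds. Genes named are the 8 members, axis genes with 10 or more UMIs over both libraries, the 3 genes most like each member with 10 or more carriers in each library, genes of the fixed lists, and Gm42418. Insr, Igfbp1, Igfals, H19, the leading genes of clusters and the antisense genes are named outside that rule. Promoters and coordinates are from RefSeq (GRCm38.p6) and GENCODE M21, whose identifiers matched 30934 of 31053 genes. The dermal papilla list is not reported here.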

Additional observations from a re-analysis of the deposited data

How the results depend on the processing

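No paired analysis was possible because each group has 1 library, and no library could be left out. Igfbp3 was the 1 member whose direction turned past 2-fold. Its log2 ratio of -0.57 became 2.56 in the fibroblast-like clusters, 2.64 with these at 10%, 2.68 without the top barcodes, 3.02 with TMM, 2.83 with UMIs of ribosomal protein and mitochondrial genes, Gm42418 and AY036118 left out of the total, and 2.56 at resolution 0.8, without integration or with axis genes among the variable genes. All of these but the first were added after seeing the data. Over all kept barcodes with 500 or more genes, of which IMQ had 37, Igfbp3 was at 0.66, Igf1 at -0.47 (-1.26 to 0.23), and Igfbp2 gave no ratio since IMQ held none. Igf1, Igfbp2, Igfbp5 and Igfbp6 stayed below 0 under every alternative run that gave a ratio, from -2.18 to -0.47, -3.64 to -2.55, -1.63 to -0.81 and -1.41 to -0.40. Igfbp4 ran from -1.96 to 0.36 and Igfbp7 from -0.58 to 0.15.

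The count of members at least 2-fold lower, 3 of 7, was 5 over all deposited barcodes (52.3% of all genes), 6 without the top IMQ barcode (48.2%), 5 without both top barcodes (43.4%), 6 at 10% without both (40.7%), and 5 in the fibroblast-like clusters without both (42.7%). It was 2 to 4 otherwise. The count at least 2-fold higher, 0, was 1 (Igfbp3) in each fibroblast-like setting. The share of Igfbp3 UMIs in the Malat1-led cluster was the same under the 3 other clusterings. Of 98 alternative shares, 64 lay within the interval of the reported share. The share of all genes at least 2-fold lower was 43.9% with a minimum of 1 UMI and 28.4% with 50, and at least 2-fold higher 10.8% and 2.43%.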
